A study of Saccharomyces cerevisiae with 6 samples.

Results

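The data described here are the 4 h comparison of a YPI1 shut-off experiment in budding yeast, Saccharomyces cerevisiae. All open reading frames with a log2 ratio on both 4 h arrays were taken, which gave 4691 of the 6212 identifiers in the deposited table, or 75.5%. The cells were strain mmr09-4, made in the CML476 background, in which a kanMX4-tetO7 cassette stands directly in front of YPI1, so that doxycycline shuts the gene off. Treated cells had 100 µg/ml doxycycline in an ethanol:water mix for 4 h in YPD, a rich glucose medium. Untreated cells of the same strain had the ethanol:water mix alone for 4 h. Both cultures carried the tetO promoter, so no ratio of YPI1 was against its native level, and doxycycline's own effect on cells is part of every ratio because no strain with the native YPI1 promoter was among the samples. One RNA pair was hybridised on 2 arrays with the dyes swapped, so every SD below is over 2 technical arrays, no test was possible and no p-value is given. Where a gene has a pair of 4 h log2 ratios, the array with doxycycline in Cy5 comes first and the array with doxycycline in Cy3 second. The file holds ratios and not the levels of each culture. Cell type markers could therefore not be checked as levels, and the labels give no mating type. Of the genes specific to a cells, 6 of 7 had a ratio on both arrays, against 2 of 4 for alpha cells and 75.5% of all identifiers. Counts this small do not give a mating type.

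Ypi1 binds Glc7, which is the catalytic part of protein phosphatase 1, and inhibits it in vitro, and together with the leucine-rich repeat protein Sds22 it forms a complex with Glc7 in the nucleus. Glc7 removes phosphate from serine and threonine residues of many proteins and takes its specificity from such regulatory subunits. In mitosis it opposes the Aurora kinase Ipl1 at the kinetochore, and elsewhere in the cell it acts in glucose repression, glycogen storage, mRNA 3′-end processing and ion balance. The title of the series names the part that Ypi1 plays in progress through mitosis as its question.

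At 4 h very few genes differed from untreated cells by a large factor on both arrays. The genes at least 2-fold lower in the mean, with 1 sign on both arrays, were YPI1 itself, CDC26, a subunit of the anaphase-promoting complex, and PHO84, the high-affinity phosphate transporter. These 3 genes are 0.064% of the 4691, and 0 genes were 2-fold higher. At 1.5-fold there were 9 lower genes (0.192%) and again 0 higher. A smaller limit, a log2 ratio of 0.32 in size that each array had to reach with the same sign, was met by 20 genes on the low side (0.426%) and 6 on the high side (0.128%).

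The arrays agreed in sign for a minority of genes, which limits what can be read from small ratios. Below 0 on both arrays were 823 genes (17.5%), above 0 on both were 849 (18.1%), and 3001 had opposite signs. At the size of 0.32 on each array, 144 genes (3.07%) had opposite signs, of which 38 were above 0 with doxycycline in Cy5 and 106 below. The correlation of the arrays over genes was r = −0.17, with genes not being independent replicates, and r = −0.31 without YPI1. With the array that had doxycycline in Cy3 turned in sign, 106 genes would reach that limit on the low side and 38 on the high side, and YPI1 would have a mean of 0.16. These 106 and 38 genes are the ones of opposite signs just counted, so both counts follow from the step itself.

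**Figure D1:**
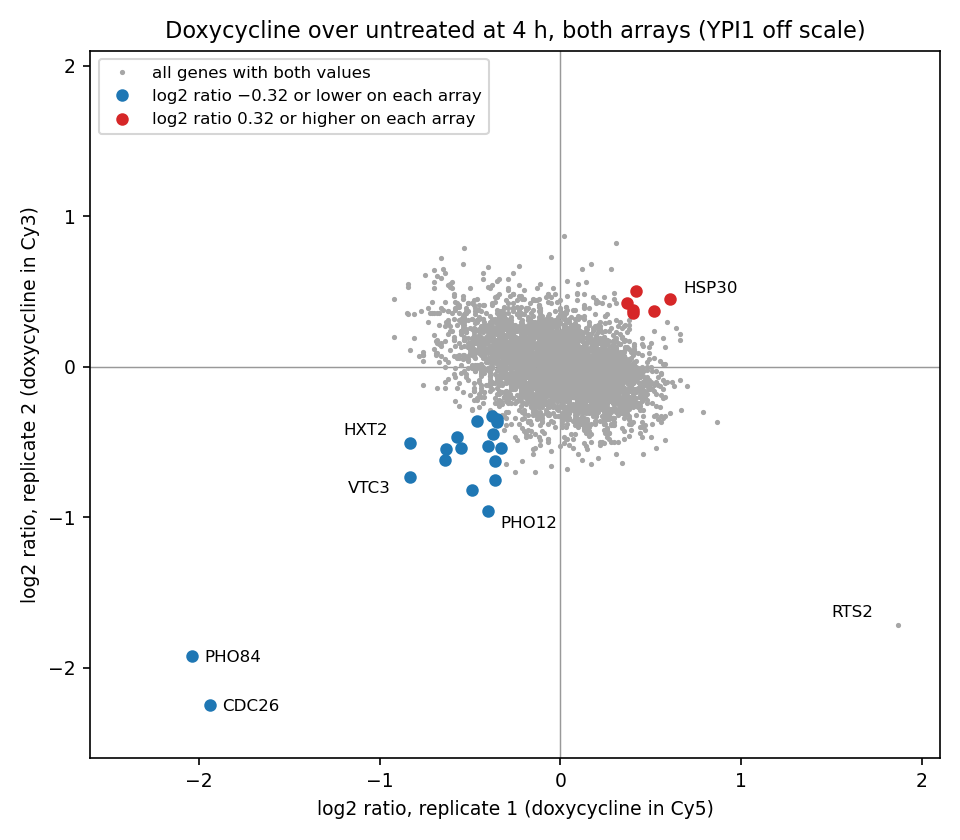
Log2 ratios of doxycycline over untreated cells at 4 h on the array with doxycycline in Cy5 (horizontal axis) and the array with doxycycline in Cy3 (vertical axis), 1 point per gene, with YPI1 off the scale. CDC26 and PHO84 stand alone at the lower left, RTS2 stands alone at the lower right, and the cloud slopes downward with r = −0.31 without YPI1.

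The deviation of the array with doxycycline in Cy5 from the mean of both arrays is the part of a gene's ratio that turns with the dye, called the dye-linked part here. Its SD over genes was 0.19, against 0.16 for the mean ratio. It recurred between times, with r = 0.57 between 2 h and 4 h over 3856 genes and r = 0.54 between 4 h and 6 h over 4021 genes. RTS2 had log2 ratios of 1.57 and −1.84 at 2 h and of 1.87 and −1.72 at 4 h, in each case above 0 with doxycycline in Cy5. At 6 h RTS2 again was above 0 with doxycycline in Cy5, at 0.70, and at −0.64 with doxycycline in Cy3. Its 4 h mean was 0.07 ± 2.54, and it was the only gene past 2-fold on each array with opposite signs. With the dye-linked part of 2 h and 6 h taken away from each of 3391 genes, a step chosen after the values were seen, the share of genes with 1 sign on both arrays was 41.9%, against 35.8% before it. The correlation of the arrays was then −0.24, against −0.29 before it, both without YPI1.

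**Figure D2:**
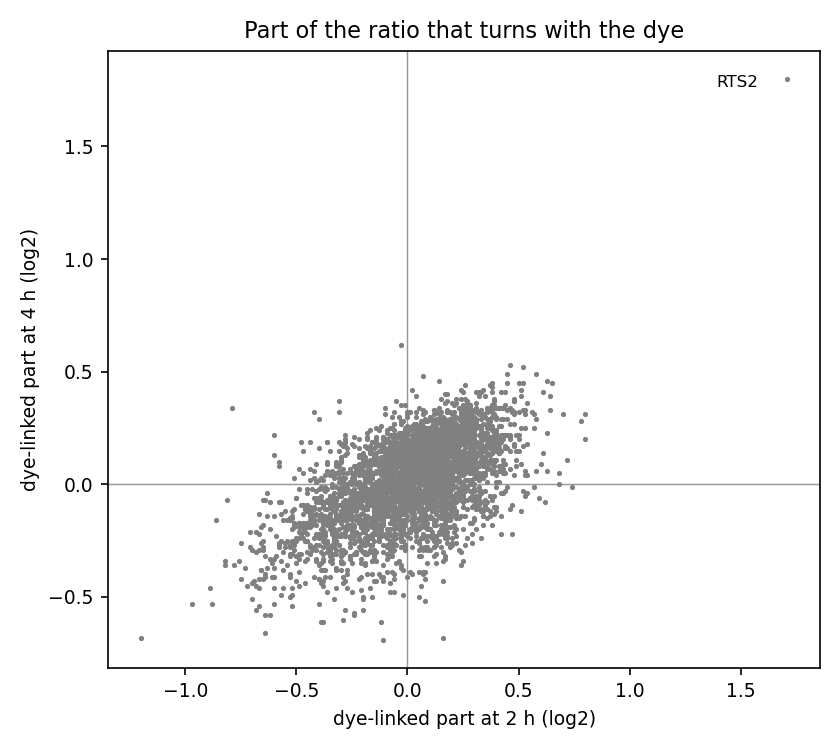
The dye-linked part of each gene's log2 ratio at 4 h (vertical axis) against that at 2 h (horizontal axis), 1 point per gene with both arrays at both times. The points run from lower left to upper right with r = 0.57, and RTS2 lies far out at the upper right with 1.71 at 2 h and 1.80 at 4 h.

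YPI1 was the lowest gene by a wide margin. Its log2 ratios were −5.32 and −5.64, a mean of −5.48 ± 0.23 that is 44.6 times below untreated cells. Both arrays lay below the −4.06 and −4.73 of 2 h and above the −6.44 and −6.17 of 6 h.

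The other genes of the phosphatase stayed close to 0. GLC7, the catalytic subunit, had −0.11 and −0.04, and SDS22, the partner of Ypi1, had 0.09 and 0.15. PTI1, of the mRNA cleavage and polyadenylation factor, had −0.22 and −0.18, and SHP1, a Cdc48 cofactor needed for Glc7 activity in the nucleus, had −0.03 and −0.16. GLC8, the relative of mammalian inhibitor-2, had −0.39 and 0.34, so its arrays were on opposite sides of 0. Of 6 measured core and nuclear regulators 4, among them YPI1, the gene shut off by design, were below 0 on both arrays (66.7%) and 1, SDS22, above (16.7%). Over all genes these shares were 17.5% and 18.1%. YPI1 was the 1 member of this list past the 0.32 limit.

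Subunits that carry Glc7 to other places, and phosphatases related to it, gave no value past that limit either. Of 11 measured targeting subunits 2 were below 0 on both arrays (18.2%, against 17.5% of all genes) and 0 above, against 18.1%. These were GIP3, a Glc7-binding protein, at −0.24 and −0.23, and SCD5, which links Glc7 to endocytosis, at −0.04 and −0.27. Among 17 measured phosphatases of the Ppz, PP2A, Sit4 and calcineurin groups 4 were below (23.5%) and 3 above 0 on both arrays (17.6%). The salt-tolerance phosphatases PPZ1 and PPZ2, close relatives of GLC7, had means of 0.10 ± 0.05 and −0.17 ± 0.19.

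The genes beside YPI1 on chromosome VI had ratios far from those of the gene between them. NIC96, of the nuclear pore, on one side had −0.53 and −0.03, and RPN11, the deubiquitinase of the proteasome lid on the other, had −0.25 and 0.12. Only NIC96 was below 0 on both arrays, and its SD of 0.35 was larger than its mean of −0.28. Over the rest of chromosome VI, without YPI1 and CDC26, the means of 87 measured genes ran from −0.29 for HSP12 to 0.25 for DAK2, a dihydroxyacetone kinase.

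CDC26 had log2 ratios of −1.94 and −2.25, a mean of −2.09 ± 0.22 or 4.27 times below untreated cells. Cdc26 is a small protein of the anaphase-promoting complex, the ubiquitin ligase that starts anaphase, and it steadies the complex's Cdc16 subunit. The 2 h arrays, at −1.89 and −1.92, were close to the 4 h values, and the 6 h arrays, at −3.17 and −2.86, were below both. RSC8, of the RSC chromatin remodeller and directly beside CDC26, had −0.28 and 0.03. On the other side YFR035C, directly beside it, had no pair of 4 h values, and PHO4, the transcription factor of the phosphate response, which comes next, had −0.14 on both arrays. Of 33 identifiers that lie between YPI1 and CDC26 in the annotation, 26 were measured, with means from −0.25 to 0.22 and a median of −0.02.

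No other measured subunit of the complex was past the 0.32 limit, with 8 of 13 listed core subunits measured. DOC1, which helps the complex hold its substrates, was on the high side at 0.66 and 0.22, a mean of 0.44 ± 0.31. APC5, a scaffold subunit, had −0.44 and −0.16, and APC2, the cullin-like subunit of the catalytic core, had −0.49 and −0.01. The largest subunit, APC1, had 0.09 and 0.14. The activators CDH1 and CDC20, which bring substrates to the complex, had −0.35 and −0.18, and −0.27 and −0.09. Of the 11 genes measured out of 17 listed, 6 had both arrays below 0 (54.5%) and 3 had both above (27.3%), against 17.5% and 18.1% of all genes. Their median was −0.18, against 0.01 over all genes. The median was −0.27 with doxycycline in Cy5 and −0.01 with doxycycline in Cy3, and that of the 8 measured core subunits, CDC26 included, was −0.05.

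PHO84 had log2 ratios of −2.04 and −1.92, a mean of −1.98 ± 0.08 or 3.93 times below untreated cells. It had no value at 2 h, and at 6 h its ratios were −0.85 and −0.74, so both 4 h arrays were below both 6 h arrays. Relative to matched genes, those of most similar length on its chromosome (20 for each gene), it was at −1.97 at 4 h and −1.59 at 6 h, which is a smaller difference. Yeast cells make Pho84, secreted acid phosphatases and the polyphosphate polymerase when the cyclin-dependent kinase Pho85 is held back by Pho81 and the transcription factor Pho4 stays in the nucleus. Of the 6 phosphate transporters in the list, 3 were measured at 4 h, and the other two had small ratios. PHO89, a sodium-phosphate symporter, had −0.10 and −0.04, and PHO91, which moves phosphate out of the vacuole, had −0.25 and 0.00.

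Genes for acid and alkaline phosphatases were low in part. PHO12 had −0.40 and −0.96, a mean of −0.68 ± 0.40, and PHO11 had −0.36 and −0.63, a mean of −0.50 ± 0.19. Both encode secreted acid phosphatases, and their sequences are so alike that spots for one may also have bound the other. The vacuolar alkaline phosphatase PHO8 had −0.25 and −0.47. By contrast the main repressible acid phosphatase PHO5, at 0.18 and −0.29, and the constitutive PHO3 beside it, at 0.25 and −0.33, had arrays of opposite sign, and this pair may also share signal. Of 8 measured genes of this kind 3 were below 0 on both arrays (37.5%, against 17.5% of all genes) and 0 above, against 18.1%.

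Of the 5 subunits of the vacuolar polyphosphate polymerase, VTC3 was the lowest with −0.83 and −0.73, a mean of −0.78 ± 0.07 or 1.72 times below untreated cells. VTC1 had −0.09 and −0.44, and VTC4, the catalytic subunit, had −0.16 and −0.15. For VTC2, at −0.49 and 0.15, and VTC5, at −0.22 and 0.24, the arrays lay on opposite sides of 0. Only VTC3 of the 5 was past the 0.32 limit.

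The regulators of the response showed no common direction. PHO81, the inhibitor of Pho85, had −0.05 and −0.24, and PHO86, which the transporter Pho84 needs to leave the endoplasmic reticulum, had −0.10 and −0.36. PHO85 itself had 0.04 and 0.07. SPL2, which holds back low-affinity phosphate uptake, was the highest of the list at 0.50 and 0.16. Over the whole phosphate list 11 of 27 measured genes were below 0 on both arrays (40.7%) and 2 above (7.41%), against 17.5% and 18.1% of all genes, and the median was −0.07. Relative to matched genes it was −0.03. VTC3 was at −0.71 relative to matched genes at 4 h and at −0.51 at 6 h, where its mean before that step was 0.54.

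**Figure D3:**
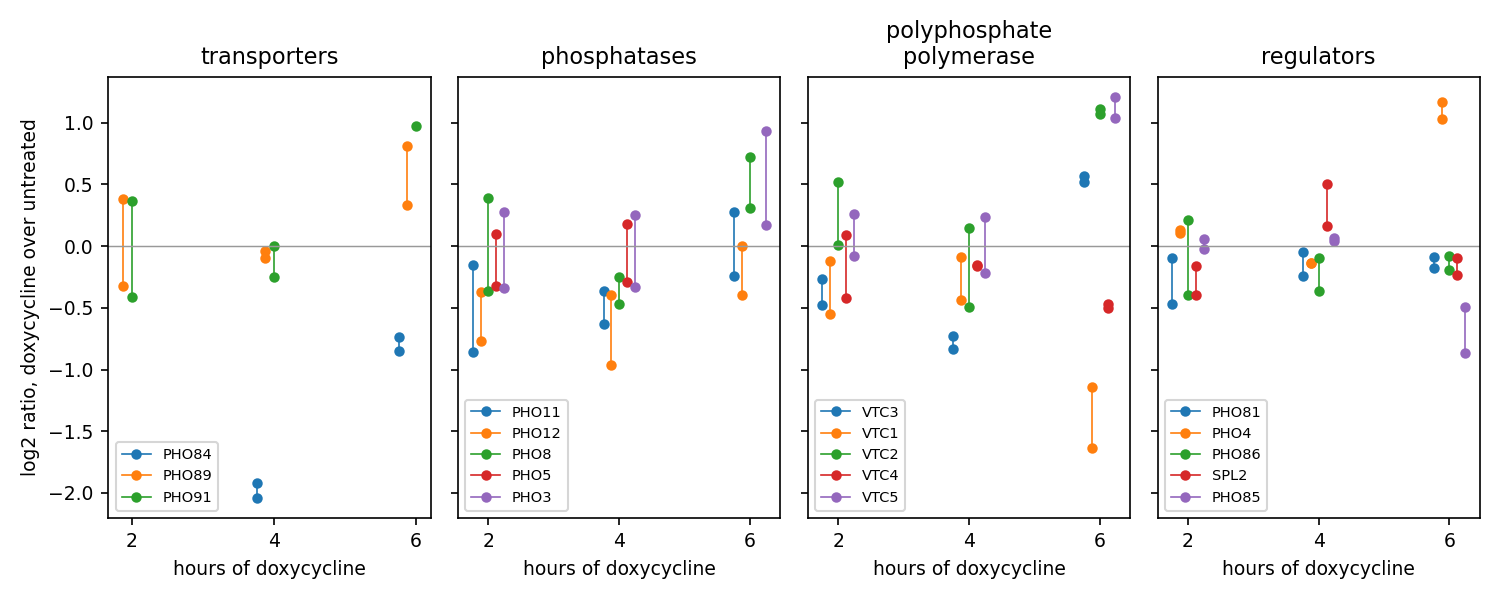
Log2 ratios of doxycycline over untreated cells for genes of phosphate uptake, phosphatases, polyphosphate synthesis and regulation at 2, 4 and 6 h. Each point is 1 array, a line joins the 2 arrays of a time, and a lone point is a gene with a value on 1 array. PHO84 is far below its neighbours at 4 h with −2.04 and −1.92, while VTC3 is below 0 at 4 h and above 0 at 6 h, where it was at −0.51 relative to matched genes.

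Besides these, 14 further genes had log2 ratios of −0.32 or lower on each array. HXT2, a high-affinity glucose transporter, had −0.83 and −0.51, a mean of −0.67 ± 0.22. BAP2, a permease for branched-chain amino acids, had −0.46 and −0.36, and ZRT1, the high-affinity zinc transporter, had −0.37 and −0.45. MCH4, of a family related to monocarboxylate permeases, had −0.57 and −0.47.

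Enzymes of several pathways were among the same genes. SNZ1, of vitamin B6 synthesis, had −0.64 and −0.62, a mean of −0.63 ± 0.02. LRO1, which makes triacylglycerol from phospholipid, had −0.63 and −0.55. The carbonic anhydrase NCE103 had −0.36 and −0.75, so its second array was well below its first. DLD3, a D-lactate dehydrogenase, had −0.35 on both arrays.

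The remaining low genes were of mixed kind. PAU11, one of the seripauperins, whose many members are nearly identical in sequence, had −0.55 and −0.54. NOP12, a nucleolar factor for the large ribosomal subunit, had −0.33 and −0.54, and NUP53, of the nuclear pore, had −0.35 and −0.37. BOP2 had a mean of −0.66 ± 0.24, YCL020W of −0.47 ± 0.09 and YMR265C of −0.35 ± 0.03. NOP12 and YMR265C, each with 1 array at −0.33, lay nearest to the limit of 0.32.

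On the high side 6 genes were past the limit. HSP30, a plasma membrane protein that restrains the proton pump Pma1, was the highest of them with 0.61 and 0.45, a mean of 0.53 ± 0.11 or 1.44 times above untreated cells. SPI1, a cell wall protein made under stress, had 0.52 and 0.37, and FRE7, of the ferric and cupric reductase family, had 0.42 and 0.50. YPC1, an alkaline ceramidase, had 0.37 and 0.42, and MMS4, which forms a DNA endonuclease with Mus81, had 0.40 and 0.36. YGR269W had 0.40 and 0.38. The highest mean of all, 0.57 ± 0.36, was that of PDR12, the exporter of weak organic acids, whose arrays at 0.31 and 0.82 left it just under the limit.

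**Figure D4:**
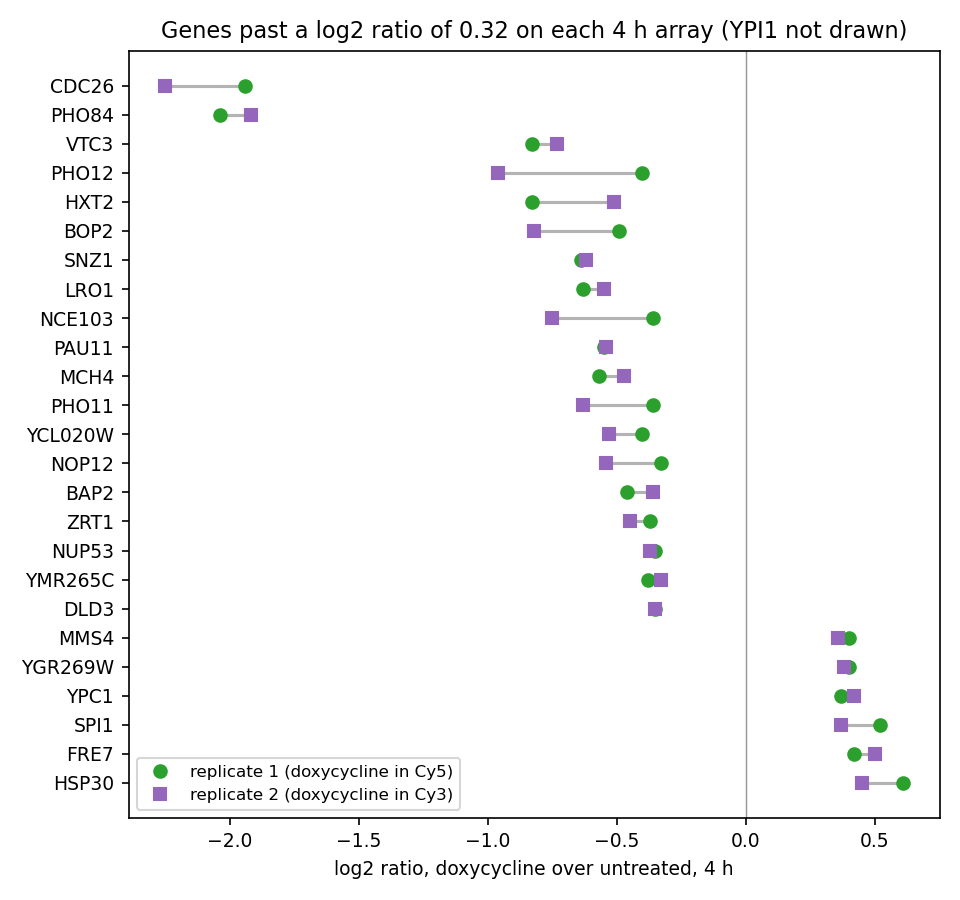
Log2 ratios at 4 h of the genes past 0.32 in size on each array, YPI1 left out, with 1 row per gene, a circle for the array with doxycycline in Cy5 and a square for the array with doxycycline in Cy3. CDC26 and PHO84 lie near −2, every other low gene lies between −0.96 and −0.33, and the high genes lie between 0.36 and 0.61.

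Gene lists, written from general knowledge of yeast genes, were read by how many members lay on 1 side of 0 on both arrays. Amino acid synthesis genes had more members below 0 on both arrays than above, with 27 of 63 measured members below (42.9%) and 4 above (6.35%), against 17.5% and 18.1% of all genes, and for the remaining 32 the arrays had no common sign. Their median was −0.12, and −0.09 relative to matched genes. The median was −0.04 on the array with doxycycline in Cy5 and −0.19 on the other. Within the list, arginine, lysine and histidine genes had the lowest median, −0.20, with 12 of 21 below 0 on both arrays and 1 above.

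The lowest members of the amino acid list make arginine. ARG56, whose product makes its early intermediates, had −0.76 and −0.12, and ARG3, ornithine carbamoyltransferase, had −0.21 and −0.63. ARG1, argininosuccinate synthetase, had −0.15 and −0.58, and TRP5, tryptophan synthase, had −0.27 and −0.38. Each was below 0 on both arrays, and 0 members of the list were past 0.32 on each array.

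Genes under nitrogen control had a similar share below 0 on both arrays. Of 21 measured, 9 were below (42.9%) and 1 above (4.76%), against 17.5% and 18.1% of all genes. Their median was −0.08, with array medians of −0.06 and −0.11, but it was −0.02 relative to matched genes. Beside BAP2 the 9 included GNP1, the high-affinity glutamine permease, at −0.64 and −0.10, and GLN3, a transcription factor of nitrogen use, at −0.44 and −0.14. Ratios of both were further from 0 with doxycycline in Cy5.

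Proteasome genes had 12 of 31 measured genes below 0 on both arrays (38.7%) and 0 above, against 17.5% and 18.1% of all genes. The proteasome median was −0.03, with array medians of −0.01 and −0.10. Among the 12 were the ATPases RPT3, with −0.10 and −0.37, and RPT4, with −0.24 and −0.10. Ergosterol synthesis genes had 9 of 25 below (36.0%) and 1 above (4.0%). Their median of −0.08 was −0.02 relative to matched genes, and their array medians were −0.01 and −0.11. Their lowest were ECM22, a sterol-responsive transcription factor, at −0.42 and −0.17, and NCP1, the cytochrome P450 reductase, at −0.24 and −0.23. Zinc genes had 5 of 10 below 0 on both arrays (50.0%) and 0 above, ZRT1 the lowest of them. The zinc median was −0.04, with array medians of −0.01 and −0.11, and it was 0.01 relative to matched genes.

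Of 31 measured heat shock and chaperone genes 9 were below 0 on both arrays (29.0%) and 3 above (9.68%). Over all genes these shares were 17.5% and 18.1%. The chaperone list had a median of −0.08 and array medians of −0.13 and 0.00. STI1, a co-chaperone of Hsp70 and Hsp90, had −0.37 and −0.30, SSE1, the Hsp110 exchange factor, had −0.55 and −0.04, and HSP60, the mitochondrial chaperonin, had −0.19 and −0.18. Of 44 measured genes that answer to the stress factors Msn2 and Msn4, 19 were above 0 on both arrays (43.2%) and 3 below (6.82%), with a median of 0.08 and 0.07 relative to matched genes. Their array medians were 0.13 and 0.03.

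In the stress list HSP30 and SPI1 were followed by YGP1, a secreted glycoprotein, with 0.45 and 0.19. HSP26, a small heat shock protein that is in both lists, had 0.38 and 0.25. Not all of these genes were high, since HSP12, a membrane-associated stress protein, had −0.16 and −0.43. For the counts that follow, the shares of all genes were 18.1% above and 17.5% below. Of the sugar store genes, PGM2, phosphoglucomutase, had 0.35 and 0.17, and TSL1, of the trehalose synthase complex, had 0.18 and 0.12. In the glycogen and trehalose list 4 of 13 were above 0 on both arrays (30.8%) and 1 below (7.69%).

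Exporters of drugs and weak acids had 6 of 14 measured members above 0 on both arrays (42.9%) and 2 below (14.3%). Over all genes these shares were 18.1% and 17.5%. The exporters had a median of 0.09 and array medians of 0.18 and 0.05. After PDR12 the highest were TPO2, a polyamine exporter, at 0.59 and 0.30, and RTA1, a membrane protein of lipid-drug resistance, at 0.33 and 0.30. PDR10, an ABC transporter, had 0.41 and 0.14. In the iron and copper list 7 of 22 were above (31.8%) and 2 below (9.09%), led by the low-affinity iron transporter FET4 at 0.27 and 0.41. HXT6, a high-affinity hexose transporter that is nearly identical to HXT7, had 0.20 and 0.42, on the other side of 0 from HXT2.

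Cell-cycle genes had small ratios. In the CLB2 cluster, genes that peak before and during mitosis, 10 of 24 measured genes were above 0 on both arrays (41.7%) and 4 below (16.7%). Over all genes these shares were 18.1% and 17.5%, and the cluster had a median of 0.00. MOB1, of the mitotic exit network, had 0.29 and 0.15, SPO12, which helps release the phosphatase Cdc14, had 0.33 and 0.10, and IQG1, of the cytokinesis ring, had 0.03 and 0.37. The mitotic cyclin CLB1 had 0.10 and 0.13 and the polo kinase CDC5 had 0.10 and 0.12. On the low side ALK1, a haspin-like kinase, had −0.30 and −0.10.

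Of 23 measured kinetochore and spindle genes 3 were below 0 on both arrays and 3 above. The Dam1 complex subunits DUO1 and SPC19, which tie chromosomes to microtubules, had 0.25 and 0.29, and 0.21 and 0.28. TUB3, the minor alpha-tubulin, had −0.18 and −0.23. Of 35 measured G1/S genes 10 were above 0 on both arrays (28.6%) and 2 below (5.71%), against 18.1% and 17.5% of all genes. The G1/S list had a median of 0.04 and array medians of 0.00 and 0.11. POL30, the sliding clamp of DNA replication, had 0.15 and 0.25, the S-phase cyclin CLB6 had 0.21 and 0.16, and PCL2, a cyclin of Pho85, had −0.14 and −0.29.

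Ribosomal protein genes showed how far the arrays could differ for a whole list. The 77 measured large-subunit genes had a median of 0.31 with doxycycline in Cy5 and of −0.09 with doxycycline in Cy3. For the 52 small-subunit genes these medians were 0.35 and −0.11. The medians of their means were 0.12 and 0.11, and 0.07 and 0.06 relative to matched genes. Above 0 on both arrays were 15 large-subunit genes (19.5%) and 10 small-subunit genes (19.2%), close to the 18.1% of all genes. Below 0 on both were 0 (0.0%) and 1 (1.92%), against 17.5% of all genes. RPL29, at 0.24 and 0.20, and RPS14A, at 0.33 and 0.15, were among those above. Many ribosomal proteins are encoded by pairs of nearly identical genes, whose spots may share signal. Histones likewise had medians of 0.25 and −0.04 over 10 genes, with HHF2, a histone H4 gene with a copy of the same protein, at 0.49 and 0.13.

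**Figure D5:**
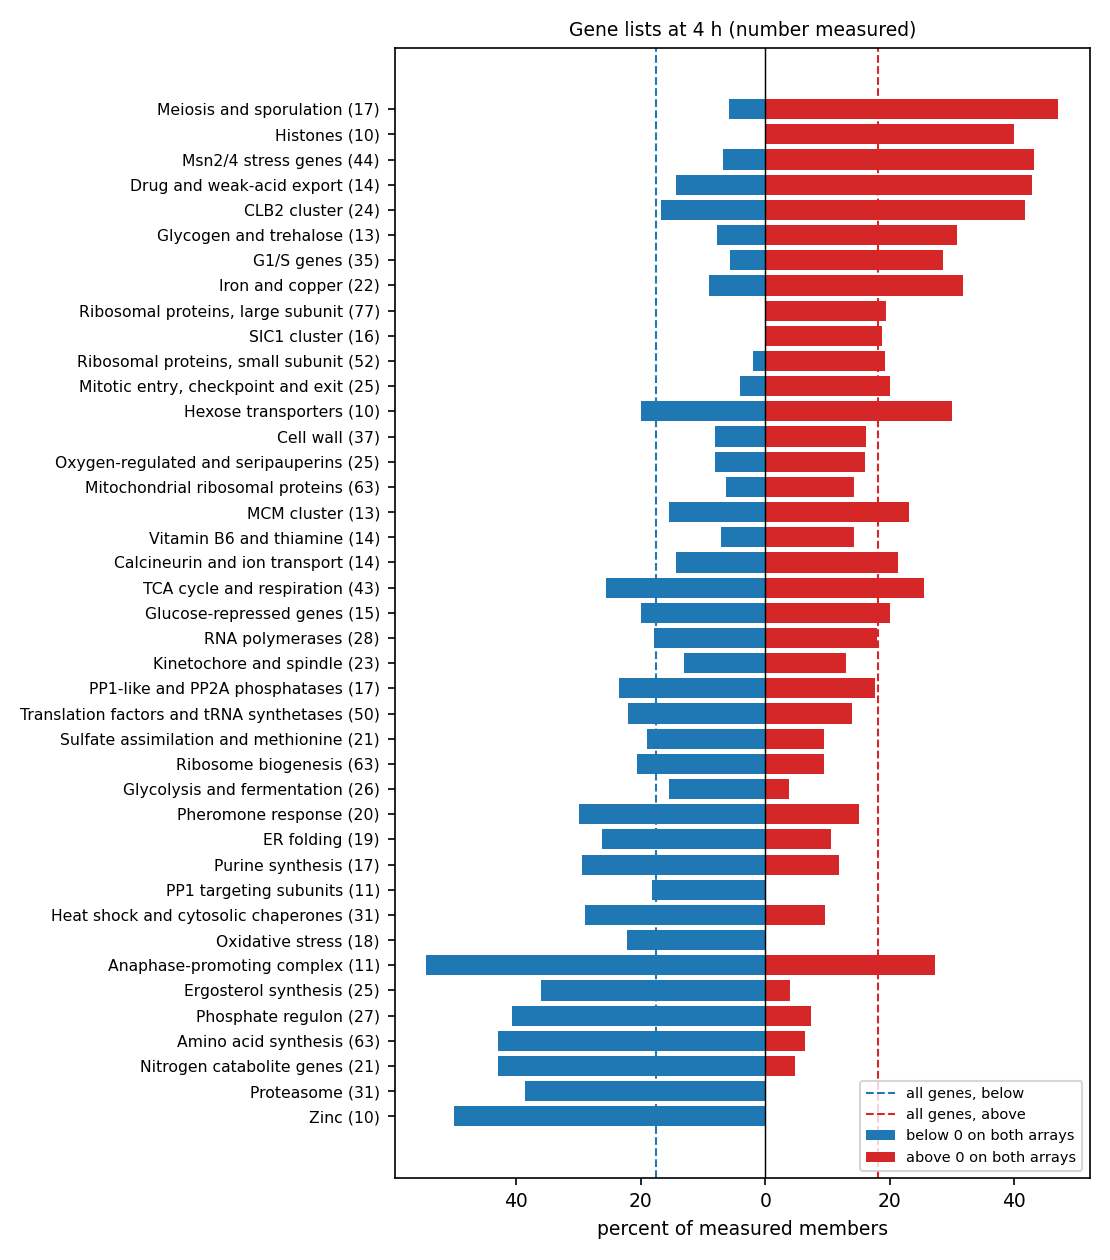
Percent of measured members of each gene list that lay below 0 (blue, to the left) or above 0 (red, to the right) on both 4 h arrays, for lists with at least 10 measured members, whose number is in parentheses. Dashed lines mark all genes, at 17.5% below and 18.1% above. Amino acid synthesis reaches 42.9% below, and the Msn2/4 stress genes reach 43.2% above.

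The 4 h ratios went with gene length in opposite ways on the arrays. Across 4446 genes with an annotated length the Spearman correlation with length was −0.43 with doxycycline in Cy5, 0.19 with doxycycline in Cy3 and −0.29 for the mean. Over bins of equal size by length, the median of the mean was 0.07 for the shortest, up to 516 bp, and −0.06 for genes of 1665 to 2001 bp. Those medians are as large as the medians of several lists above. YPI1, CDC26 and PHO84 were at −5.51, −2.13 and −1.97 relative to matched genes.

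Each time had its own untreated culture, so 2, 4 and 6 h can be set side by side, but with 1 RNA pair each the differences were not tested. Of the 20 low genes past the limit on each 4 h array, 16 had both values at 2 h, where 9 were below 0 on both arrays and 1 above. At 6 h 18 had both values, and 8 were below and 9 above. Of all 655 genes below 0 on both 4 h arrays, whatever their size, with both values at 2 h, 80 were below on both there and 147 above. At 6 h these counts were 172 and 468 of 705. SNZ1 was below 0 on every array, with means of −0.54, −0.63 and −0.44 at 2, 4 and 6 h. So was PAU11 with −0.60, −0.54 and −0.74, and so was NCE103 with −0.45, −0.55 and −0.59. Relative to matched genes the 6 h values of SNZ1, PAU11 and NCE103 were closer to 0, at −0.15, −0.03 and −0.16.

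Others of the 20 were on the other side of 0 later. LRO1 had a mean of −0.59 at 4 h and 1.60 at 6 h, NOP12 had −0.44 and 2.44, and NUP53 had −0.36 and 2.02. Of these only NUP53 had both values above 0 at 2 h, with a mean of 0.28. Relative to matched genes the 6 h values were 0.42 for LRO1, 2.03 for NOP12 and 1.56 for NUP53. Among the 6 high genes, HSP30 was above 0 on every array, with means of 0.36, 0.53 and 0.40 at 2, 4 and 6 h. FRE7 had 0.26, 0.46 and 1.53, with its 2 h arrays on opposite sides of 0. Its values relative to matched genes were 0.58 at 4 h and 0.46 at 6 h, so the higher 6 h ratio was not seen there. YPC1 had 0.17, 0.39 and −0.23, and −0.06 at 6 h relative to matched genes.

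Across genes, without YPI1, the 4 h means correlated with those of 2 h at r = −0.12 and with those of 6 h at r = −0.39. Taken relative to matched genes the values were 0.05 and −0.14. Of 705 genes below 0 on both 4 h arrays and measured at 6 h, 468 were above 0 on both 6 h arrays and 172 below. Of 753 genes above 0 on both 4 h arrays, 486 were below 0 on both 6 h arrays and 184 above.

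Some genes had both 4 h arrays outside the range of the 4 arrays of 2 h and 6 h. Of 3391 genes with all 6 values, 252 (7.43%) were below all others at 4 h and 262 (7.73%) above. For 2 h the same counts were 86 (2.54%) and 96 (2.83%), and for 6 h they were 1313 (38.7%) and 932 (27.5%). The widest gap on the low side was that of MDM10, of the outer mitochondrial membrane, at −0.31 and −0.20, which is 0.56 under the lowest other array. MCX1, a mitochondrial unfoldase, had −0.49 and −0.29, and TCM62, a mitochondrial chaperone, had −0.24 and −0.49. LAM5, a sterol transfer protein, PRD1, an oligopeptidase, APL6, of the AP-3 vesicle coat, and YHL050C had means between −0.32 and −0.22, and NUP53 belonged with these.

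On the high side the widest gap was that of EST3, a telomerase subunit, at 0.21 and 0.23, which is 0.46 over the highest other array. SET3, of a histone deacetylase complex, had 0.19 and 0.16, and MCP1, a mitochondrial membrane protein, had 0.41 and 0.15. IMP3, of the U3 small nucleolar particle, had 0.34 and 0.20, and UPA2 had 0.35 and 0.27. GRX6, a glutaredoxin of the secretory pathway, AAC1, a mitochondrial ADP/ATP carrier, and YMR119W-A had means of 0.12, 0.10 and 0.22.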

How the data were processed

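The authors deposited 1 value per open reading frame and array, taken as the log2 ratio of doxycycline over untreated cells on every array, because treated RNA is channel 1 in the labels and YPI1 was far below 0 on each of the 6 arrays. Log base, normalization, spot averaging and any turning of the swapped arrays are not given in the sources used here, and every fold assumes log2. Spots under 120 µm or under 100 units of Cy3 and Cy5 were left out by the authors, per the labels. Total RNA was copied into cDNA from oligo(dT) and labelled indirectly, per the labels' protocols. Doxycycline was in Cy5 on replicate 1 and in Cy3 on replicate 2 of 4 h. For one 2 h array the labels name Cy3 in both channels, and it was treated as the swap. The 4 h arrays held 4804 and 4800 values. Without signal intensities, which were not analysed here, the depth is unknown, and precision is limited by the number of arrays.

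Both arrays of a time were averaged per gene with pandas 2.3.3 and numpy 2.4.6 (statsmodels 0.14.6 for lowess). Genes were counted as past 2-fold in the mean with 1 sign, or past a log2 ratio of 0.32 on each array. Names and lengths came from the R64 annotation, which 5662 of 6212 identifiers matched, and no coordinates are printed because the files name no build. Alternatives were centring, scaling, a lowess length curve (span 0.3), matched genes, the Cy3 array turned, other limits and left-out arrays. Removal of the dye-linked part and the restriction to genes on all 6 arrays were chosen later, with the values already seen. The 2-fold counts, the length curve and the matched-gene step were checked on simulated data with large planted changes. The counts at 0.32 on each array were not checked against a known answer.

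The members and the 46 gene lists were chosen with earlier results of these data known. After list values had been seen, RNase P and MRP8 genes that a name pattern had caught were taken out of the ribosomal protein lists, and 3 double-named genes, ARG56 among them, were respelled to match the annotation. The rule for named genes took those past 2-fold, those past it with opposite signs, up to 15 lowest and highest past 0.32 on each array, YPI1, NIC96, RPN11, GLC7, SDS22 and CDC26, up to 4 members per list, and the 8 widest gaps on each side against 2 h and 6 h. Not every gene it allows is named, and genes outside it, such as most phosphate genes and the lowest-ranked genes past 0.32, were chosen after their values were seen.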

Additional observations from a re-analysis of the deposited data

Results flagged for a closer look

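Of the 124 genes named in the text, 67 had both 4 h arrays on one side of 0 and both arrays of another time on the other side, 27 of them against 2 h and 65 against 6 h. None of these differences was tested, since each time had 1 RNA pair. Over all genes, 468 of 705 genes below 0 on both arrays at 4 h were above 0 on both at 6 h, and 486 of 753 above at 4 h were below at 6 h. Against 2 h this held for 147 of 655 and 165 of 714 genes. Relative to matched genes 41 of the 65 were on opposite sides of 0 at 4 h and 6 h, 23 were not and 1 had no value. That count used the sign of the mean alone, and its share over all genes is not given here. Among the 23, the values at 4 h and 6 h were −0.71 and −0.51 for VTC3, −0.65 and −0.13 for HXT2, −0.24 and −0.44 for DLD3, −0.18 and −0.46 for NIC96 and −0.14 and −0.39 for APC2. GLC7, whose 4 h mean was below 0, was at 0.03 and −0.57. The values below are 4 h means, and the genes with the widest gaps at 4 h were named for that difference, so for these it is a description of the choice.

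Below 0 at 4 h and above 0 at both 2 h and 6 h were the phosphatase genes GLC7 at −0.07 and SCD5 at −0.16, the phosphate regulator PHO4 at −0.14, the nuclear pore gene NUP53 at −0.36, the proteasome gene RPT4 at −0.17, the kinase ALK1 at −0.20 and the tRNA synthetase MES1 at −0.31. So were, among genes of the widest gaps, MDM10 at −0.25, MCX1 at −0.39, TCM62 at −0.36, LAM5 at −0.22, PRD1 at −0.32, APL6 at −0.32 and YHL050C at −0.24. Relative to matched genes some of these low genes were among the 23 not on opposite sides at 4 h and 6 h. They were PHO4 at 0.01 and 1.13, ALK1 at −0.07 both times, TCM62 at −0.24 both times and LAM5 at −0.09 and −0.35. Above 0 at 4 h and below 0 at both other times were SPL2 at 0.33, SPO12 at 0.21 and DUO1 at 0.27. The same held for EST3 at 0.22, SET3 at 0.17, YMR119W-A at 0.22, MCP1 at 0.28, GRX6 at 0.12, AAC1 at 0.10, UPA2 at 0.31 and IMP3 at 0.27. At 6 h DUO1 and UPA2 were barely below 0, with means of −0.01 and −0.04. Also among the 23, relative to matched genes, were SPL2 at 0.18 and 0.11, SPO12 at 0.09 and 0.32 and DUO1 at 0.19 and 0.25. GRX6 at 0.05 and 0.03, UPA2 at 0.23 both times and IMP3 at 0.15 and 0.17 were too. POL30 at 0.20 and SPO16 at 0.29 were below 0 at 2 h alone.

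Against 6 h alone, genes below 0 at 4 h and above 0 later included, from phosphate and transport, VTC3 at −0.78, PHO8 at −0.36, PHO89 at −0.07, HXT2 at −0.67 and MCH4 at −0.52. From the phosphatase and the anaphase-promoting complex they were PTI1 at −0.20, SHP1 at −0.09, GIP3 at −0.23, PPZ2 at −0.17, CDH1 at −0.27, CDC20 at −0.18 and APC2 at −0.25, and beside YPI1 it was NIC96 at −0.28. Metabolic genes of this kind were LRO1 at −0.59, DLD3 at −0.35, ARG56 at −0.44, ARG1 at −0.37, TRP5 at −0.32, NCP1 at −0.24, SUC2 at −0.34 and POT1 at −0.47. The others were NOP12 at −0.44, YMR265C at −0.35, YCL020W at −0.47, GLN3 at −0.29, RPT3 at −0.23, STI1 at −0.33, SSE1 at −0.29, HSP60 at −0.19, TUB3 at −0.20 and SUP45 at −0.18. Above 0 at 4 h and below 0 at 6 h were PPZ1 at 0.10, PHO85 at 0.06, YPC1 at 0.39, CDC5 at 0.11, SPC19 at 0.24, HHF2 at 0.31, RPL29 at 0.22, RPS14A at 0.24 and ATP15 at 0.42.

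The array medians of 12 gene lists did the same. At 4 h the medians were −0.08 for core phosphatase regulators, −0.03 for sulfate assimilation and methionine genes and −0.03 for proteasome genes, each against array medians above 0 at 2 h, and for the first 2 of these at 6 h as well. Against 6 h alone they were −0.02 for related phosphatases, −0.18 for the anaphase-promoting complex, −0.07 for translation factors, −0.12 for amino acid synthesis, −0.05 for ER folding, −0.08 for ergosterol synthesis and −0.08 for nitrogen genes. RNA polymerase genes at 0.02 and alpha-cell genes at 0.09 (2 measured at 4 h, 1 at 6 h) were above 0 at 4 h and below at 6 h. The 6 h medians ran from −0.80 for alpha-cell genes to 0.75 for nitrogen genes.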

How the results depend on the processing

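No paired analysis was possible because no test was run with 1 RNA pair per time. The 3 genes 2-fold lower stayed at 3 with arrays centred, scaled, with the length curve removed, relative to matched genes and with 2-fold on each array, and were 2 where genes without a 2 h value, such as PHO84, dropped out. A 1.5-fold limit gave 9. With the Cy3 array turned, 0 genes were 2-fold lower and 1 higher, and 106 were past 0.32 on the low side and 38 on the high side on each array. None of the 20 lower and 6 higher genes could keep its call then, because turning 1 array gives every gene of 1 sign opposite signs. The 106 and 38 genes are those of opposite signs before the step, so the step could not check the calls. The means of YPI1 (0.16), CDC26 (0.15), PHO12 (0.28), BOP2 (0.17), NCE103 (0.20), PHO11 (0.14), YCL020W (0.06), NOP12 (0.11), ZRT1 (0.04), NUP53 (0.01), DLD3 (0.00), FRE7 (−0.04) and YPC1 (−0.03) changed sign. The cause of the opposite signs was not tested.

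On each array alone 3 to 4 genes were 2-fold lower and 0 to 1 higher, and 229 to 558 were past 0.32 on the low side and 243 to 424 on the high side. With the dye-linked part of 2 h and 6 h removed, 11 were lower and 2 higher past 0.32 on each array, and of the 20 lower genes 14 had a value and 8 of these kept the call, as did 2 of the 5 higher genes with a value. Relative to matched genes 11 were higher past it, and 15 of the 20 lower genes and 3 of the 5 higher genes with a value kept the call. With arrays scaled 13 of the 20 kept it. The median of large-subunit ribosomal protein genes was 0.31 without replicate 2 and −0.09 without replicate 1, and that of amino acid synthesis genes was 0.08 with the Cy3 array turned. Signal over background was not analysed here, so how far it limits single ratios is unknown.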

Other observations

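Several gene groups not described above held members with 1 sign on both 4 h arrays. Of 39 listed meiosis and sporulation genes only 17 were measured. Above 0 on both arrays were 8 of these (47.1%) and below 0 was 1 (5.88%), against 18.1% and 17.5% of all genes. The array medians were 0.18 with doxycycline in Cy5 and −0.00 with doxycycline in Cy3. SPO16, of the synapsis initiation complex, had 0.32 and 0.27, and DMC1, the meiotic recombinase, had 0.29 and 0.21. TCA cycle and respiration genes were spread evenly, with 11 of 43 below (25.6%) and 11 above (25.6%). ATP15, the epsilon subunit of ATP synthase, was at 0.66 and 0.18, and QCR10, of the cytochrome bc1 complex, at 0.38 and 0.17. Cell wall genes had 6 of 37 above (16.2%) and 3 below (8.11%), with the glucan synthase FKS1 at 0.22 and 0.27.

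Ribosome biogenesis genes had 13 of 63 below 0 on both arrays (20.6%) and 6 above (9.52%), against 17.5% and 18.1% of all genes. RPF1, of the large subunit, was at −0.23 and −0.20. Translation factors and tRNA synthetases had 11 of 50 below (22.0%) and 7 above (14.0%). MES1, methionyl-tRNA synthetase, was at −0.48 and −0.14 and the release factor SUP45 at −0.16 and −0.19. Of 15 glucose-repressed genes 3 were below 0 on both arrays and 3 above, with invertase, SUC2, at −0.14 and −0.54 and the peroxisomal thiolase POT1 at −0.25 and −0.70 on the low side. Glycolysis and fermentation genes had array medians of 0.21 with doxycycline in Cy5 and −0.21 with doxycycline in Cy3, over 26 genes.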
